A study of Mus musculus with 24 samples.

Results

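The genes of LIF and STAT3 signalling studied here were 6 members, Lifr, Il6st, Stat3, Socs3, Pim1 and Bcl3, out of 19938 genes measured. They were taken as the probe sets that the array annotation assigns to each of these single symbols, 7 probe sets in all. A gene was represented by its probe set with the highest mean over all arrays. Socs3 was the only member with more than 1, and its second probe set, 10383010, is given beside its results. The probe sets used were 10422822 for Lifr, 10407173 for Il6st, 10391301 for Stat3, 10393449 for Socs3, 10443527 for Pim1 and 10560685 for Bcl3.

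RNA was measured on 24 Affymetrix whole-transcript arrays of mouse embryonic stem cells (ESCs) and of the embryoid bodies (EBs) they form when they differentiate. Each of 4 clones was measured on days 0, 3 and 7 of differentiation with 2 arrays a day. The knockout (KO) clones lack Eed and came from lines E14 and J1, and the wild-type (WT) clones came from lines J1 and V6.5. Eed encodes one of the core proteins of Polycomb repressive complex 2, which methylates histone H3. Day 0 cells of all 4 clones grew with LIF-conditioned medium on mitomycin-inactivated embryonic fibroblasts (MEFs), and EBs were started in hanging drops from cells depleted of MEFs, in medium with less serum and no LIF. Withdrawal of LIF therefore cannot be told apart from loss of the MEFs, the change of serum or cell aggregation. Each line of a genotype was treated as 1 clone, because the sample labels name lines and not clones. J1 was the only line present as both KO and WT. The labels do not say whether the 2 arrays of a clone and day were separate cultures. The p-values over all clones are set by a spread that includes differences between only 2 clones of a genotype. Those of the clone-by-clone fits are set by the spread between the arrays of a clone and day, which may be technical only.

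LIF is a cytokine that binds the receptor LIFR (gene Lifr), which pairs with the shared signal-transducing subunit gp130 (gene Il6st). The paired receptors activate JAK kinases, which phosphorylate the transcription factor STAT3. STAT3 moves to the nucleus, switches on its target genes and keeps mouse ESCs self-renewing. Socs3 is one of these targets and encodes the feedback inhibitor that binds gp130 and JAK kinases. Pim1, which encodes a serine/threonine kinase, and Bcl3, which encodes an IκB-family cofactor of NF-κB, are also known STAT3 targets.

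STAT dimers bind the palindrome TTCNNNGAA, which reads the same on both strands, where N is any base. The 300-base windows of the RefSeq promoter table (GRCm38.p6), from 250 bases before to 50 after a transcript start, were searched for it. All 6 members matched the table, with 8 windows, and 1 window held the palindrome, that of Socs3. Of all 32851 windows, 8.3% held it. The Socs3 window is printed because Socs3 had the largest response of the members, by the probe set used. It is chr11:117969317-117969616 on the minus strand, inside the annotated span of the gene, and the capitals mark the match, whose first base lies 154 bases upstream of the start.
Socs3 promoter: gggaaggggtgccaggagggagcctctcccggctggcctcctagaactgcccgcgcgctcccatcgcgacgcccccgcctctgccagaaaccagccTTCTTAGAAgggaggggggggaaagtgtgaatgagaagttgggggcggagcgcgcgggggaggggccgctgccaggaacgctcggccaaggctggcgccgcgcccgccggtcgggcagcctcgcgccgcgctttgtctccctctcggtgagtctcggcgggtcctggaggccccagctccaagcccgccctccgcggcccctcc
A match of letters is not evidence of binding, and the absence of one elsewhere says only that these letters are not in those windows.

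The targeted gene was checked first. Eed read between 5.76 and 7.48 on the log2 scale in the KO arrays and between 9.37 and 11.02 in the WT arrays, so no array went against its label. The pluripotency list (8 genes, Pou5f1 and Nanog among them) averaged 12.18 in KO and 11.89 in WT on day 0. The WT J1 arrays of day 7 stood apart. They correlated at 0.962 across genes and differed at least 2-fold in 1256 genes, against 0.990 or more and 21 to 163 genes for the other pairs. Replicate 2 of that pair had a myeloid list mean of 7.90, against 5.72 to 6.15 in the other 3 WT arrays of day 7. Replicate 1 stood apart on other lists, with a neural mean of 8.72 (6.86 to 7.07 in the other 3), a cardiac mean of 7.59 (8.42 to 9.20), an endothelial mean of 7.43 (8.90 to 9.26) and a primitive blood mean of 9.34 (10.17 to 10.86). For Lifr, Il6st and Stat3 the WT day 7 difference from day 0 is also given without these arrays. All other day 7 results, the KO against WT comparisons included, are over all arrays unless stated. The same holds for the other pathway and marker genes.

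Levels are log2 values normalised by the robust multi-array average (RMA), a difference of 1 is 2-fold, and differences were tested with limma over all genes. A gene is said to have risen or fallen, or is called, where its change was at least 2-fold and its p, adjusted by Benjamini and Hochberg's method, was under 0.05. A member past the p threshold alone is given with its value. Counts at an unadjusted p under 0.05 are given without the share of all genes, which was not computed. SE is the model's standard error, and n is 4 arrays per genotype and day.

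By day 3 of EB culture, 3 of the 6 members had fallen in KO cells (Socs3, Bcl3 and Stat3) and 5 of 6 in WT cells (the same 3, Lifr and Pim1). Il6st passed neither threshold in KO and only the p threshold in WT. Of all genes, 0.607% fell in KO and 1.08% in WT over the same interval. The median difference of the members was −0.963 in KO and −1.415 in WT, against 0.025 in KO and −0.002 in WT over all genes. By the p threshold alone, 4 of 6 members were lower in KO and 6 of 6 in WT, against 3.24% and 5.59% of all genes. By day 7, Socs3 and Bcl3 were the members that were lower than on day 0 by the call in both genotypes, against 0.421% of all genes in KO and 3.89% in WT. The p threshold alone was passed downward on day 7 by 4 members in each genotype, against 7.29% of all genes in KO and 19.2% in WT. The changes to day 3 and to day 7 share their day 0 arrays. In these bulk samples, fewer cells expressing a gene and less RNA per cell cannot be told apart.

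**Figure D1:**
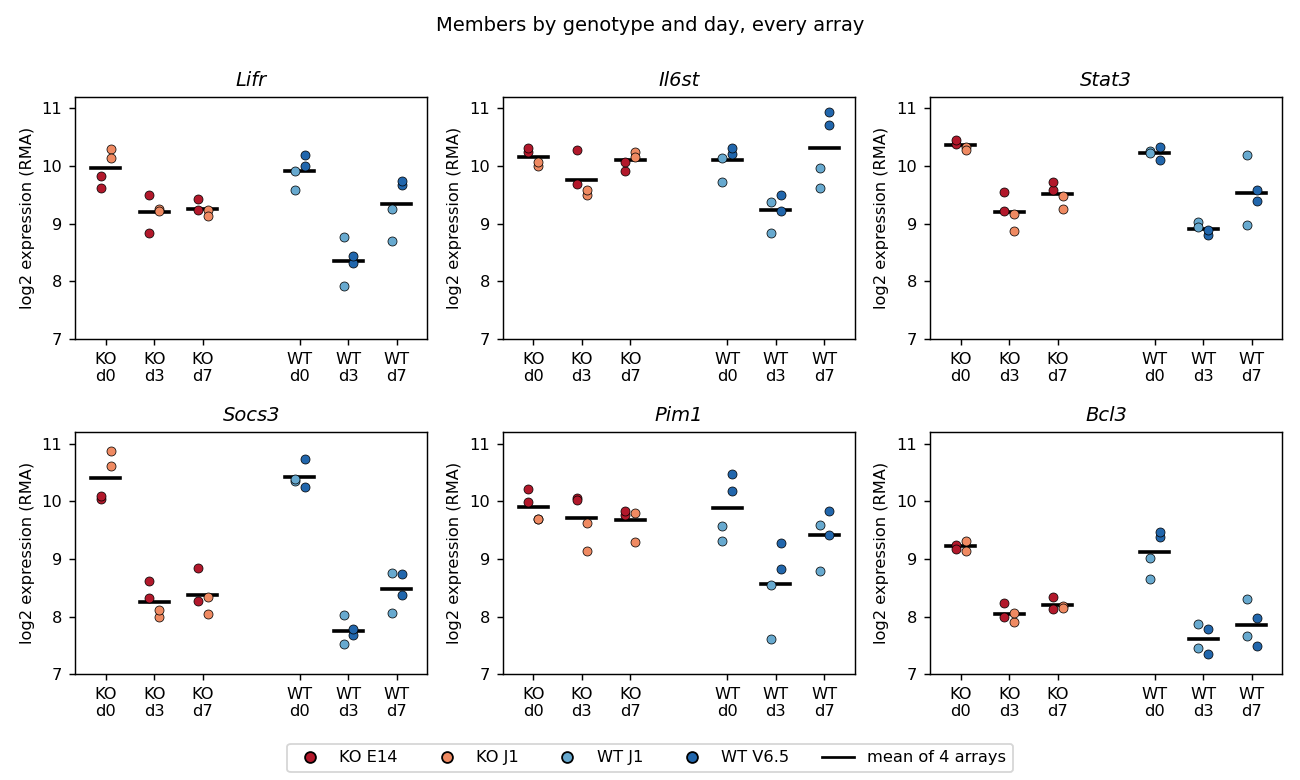
Log2 expression of the 6 members on every array, by genotype and day (d), with KO left of WT and the line of each array in colour. Bars are means of 4 arrays. Socs3 and Bcl3 on days 3 and 7 lie below all day 0 arrays of the same genotype, and Pim1 lies lower on day 3 in WT, with a mean of 8.57.

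Lifr encodes the receptor subunit that binds LIF. In KO cells Lifr read 9.83, 9.62, 10.29 and 10.14 on day 0, then 8.83, 9.50, 9.25 and 9.21 on day 3, and 9.43, 9.23, 9.24 and 9.14 on day 7 (E14 arrays before J1 arrays). In WT cells Lifr read 9.59, 9.92, 9.99 and 10.18 on day 0, then 8.76, 7.92, 8.31 and 8.44 on day 3, and 8.69, 9.25, 9.67 and 9.73 on day 7 (J1 arrays before V6.5 arrays). All day 3 arrays lay below all day 0 arrays in both genotypes, but on day 7 the WT arrays overlapped those of day 0. Lifr fell 2.94-fold to day 3 in WT (−1.56, SE 0.191, adjusted p = 7.0e-06). In KO its day 3 level was 0.77 lower than on day 0, past the p threshold (adjusted p = 0.014) but under 2-fold. On day 7 it was 0.71 lower than on day 0 in KO (adjusted p = 0.011) and 0.58 lower in WT (adjusted p = 0.019), both under 2-fold. Without both WT J1 arrays of day 7 the WT difference was −0.26 (adjusted p = 0.38).

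Il6st encodes gp130, which is used by several receptors of the IL-6 cytokine family. In KO cells Il6st read 10.24, 10.31, 10.00 and 10.07 on day 0, then 9.69, 10.27, 9.49 and 9.59 on day 3, and 9.92, 10.07, 10.24 and 10.16 on day 7. In WT cells Il6st read 9.72, 10.14, 10.21 and 10.31 on day 0, then 9.38, 8.83, 9.22 and 9.50 on day 3, and 9.62, 9.97, 10.71 and 10.93 on day 7. The KO arrays of the 3 days overlapped, whereas all WT arrays of day 3 lay below those of day 0, and the 2 V6.5 arrays of day 7 were the highest of all. The day 3 difference from day 0 was −0.39 in KO (95% interval −0.79 to 0.01, adjusted p = 0.28) and −0.87 in WT (SE 0.193, adjusted p = 0.0035), which is under 2-fold. From day 3 to day 7 Il6st rose 2.11-fold in WT (1.08, SE 0.193, adjusted p = 1.3e-04), where 3.78% of all genes rose and 2.45% fell, and differed by 0.34 in KO (adjusted p = 0.28). That rise was 0.69 without the V6.5 WT clone (adjusted p = 0.064), 1.53 without both WT J1 arrays of day 7, and 0.90 to 0.98 without V6.5 replicate 1 or 2 of day 7 or J1 replicate 2 of day 3, where it stayed past the p threshold but under 2-fold. By clone, the change from day 3 to day 7 was 0.02 in KO E14, 0.66 in KO J1, 0.69 in WT J1 and 1.46 in WT V6.5. Within line J1 the KO and WT values were thus alike. On day 7 Il6st stood 0.06 below its day 0 level in KO and 0.21 above it in WT, neither past the threshold (adjusted p = 0.89 in KO and 0.45 in WT). Without both WT J1 arrays of day 7 the WT difference was 0.66 (adjusted p = 0.0096), under 2-fold.

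Stat3 encodes the transcription factor itself. In KO cells Stat3 read 10.38, 10.44, 10.33 and 10.27 on day 0, then 9.21, 9.54, 8.88 and 9.17 on day 3, and 9.58, 9.72, 9.48 and 9.25 on day 7. In WT cells Stat3 read 10.25, 10.22, 10.10 and 10.33 on day 0, then 9.02, 8.94, 8.80 and 8.89 on day 3, and 8.98, 10.19, 9.58 and 9.40 on day 7. Arrays of day 0 lay within a narrow band above all of day 3, and among day 7 arrays WT J1 replicate 2, at 10.19, was the one that reached the day 0 levels. Stat3 fell 2.22-fold to day 3 in KO (−1.15, SE 0.161, adjusted p = 6.5e-05) and 2.48-fold in WT (−1.31, SE 0.161, adjusted p = 6.9e-06). On day 7 it was 0.85 lower than on day 0 in KO (adjusted p = 6.6e-04) and 0.69 lower in WT (adjusted p = 0.0013), past the p threshold and under 2-fold. Without WT J1 replicate 2 of day 7, the WT difference was −0.91 (adjusted p = 5.5e-06), and without both WT J1 arrays of that day it was −0.72 (adjusted p = 1.3e-04).

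Socs3, the feedback inhibitor, had the largest response, by the first of its 2 probe sets. In KO cells Socs3 read 10.04, 10.10, 10.87 and 10.62 on day 0, then 8.61, 8.33, 7.99 and 8.11 on day 3, and 8.85, 8.28, 8.34 and 8.05 on day 7. In WT cells Socs3 read 10.35, 10.38, 10.73 and 10.25 on day 0, then 8.03, 7.53, 7.69 and 7.79 on day 3, and 8.07, 8.75, 8.74 and 8.38 on day 7. The lowest day 0 array, at 10.04, lay more than 1 unit above the highest later array, at 8.85. Socs3 fell 4.43-fold to day 3 in KO (−2.15, SE 0.195, adjusted p = 5.2e-07) and 6.34-fold in WT (−2.66, SE 0.195, adjusted p = 5.2e-09). On day 7 it was 4.07-fold below day 0 in KO (−2.03, adjusted p = 1.9e-07) and 3.84-fold below it in WT (−1.94, adjusted p = 3.3e-08). Ranked among all genes by the size of the fall, Socs3 had 9 genes ahead of it on day 3 and 3 on day 7 in KO, against 5 on day 3 and 159 on day 7 in WT.

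The second Socs3 probe set read lower (7.19 over all arrays, against 8.95) and moved less. It averaged 7.62 on day 0, 6.88 on day 3 and 6.87 on day 7 in KO, and 7.60, 7.05 and 7.12 on those days in WT. Its day 3 difference from day 0 was −0.74 in KO (adjusted p = 0.010) and −0.54 in WT (adjusted p = 0.043). Its day 7 difference was −0.75 in KO (adjusted p = 0.0039) and −0.48 in WT (adjusted p = 0.033). The direction was the one of the first probe set in all 4 comparisons, and the size stayed under 2-fold. By clone, its day 3 difference was −0.80 in KO E14, −0.67 in KO J1, −0.22 in WT J1 and −0.87 in WT V6.5. The day 7 differences were −0.93, −0.58, −0.26 and −0.70 in that order. Those of WT J1 had adjusted p = 0.73 on day 3 and 0.53 on day 7 in limma. WT arrays of day 0 (7.16 to 8.26) overlapped those of day 3 (6.82 to 7.35) and day 7 (6.99 to 7.26), whereas KO arrays did not overlap.

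Pim1 encodes a kinase that favours survival and growth. In KO cells Pim1 read 10.21, 9.99, 9.70 and 9.69 on day 0, then 10.05, 10.03, 9.14 and 9.62 on day 3, and 9.76, 9.83, 9.29 and 9.80 on day 7. In WT cells Pim1 read 9.32, 9.57, 10.48 and 10.18 on day 0, then 8.55, 7.62, 9.27 and 8.83 on day 3, and 8.80, 9.59, 9.83 and 9.42 on day 7. The KO arrays of the 3 days overlapped, and in WT the J1 arrays lay below the V6.5 arrays on days 0 and 3 and overlapped them on day 7. Pim1 fell 2.49-fold to day 3 in WT (−1.32, SE 0.243, adjusted p = 6.6e-04) and differed by −0.19 in KO (95% interval −0.69 to 0.32, adjusted p = 0.76). On day 7 it differed from day 0 by −0.23 in KO (adjusted p = 0.62) and −0.48 in WT (adjusted p = 0.14).

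Bcl3 encodes a nuclear cofactor of NF-κB subunits. In KO cells Bcl3 read 9.25, 9.18, 9.31 and 9.14 on day 0, then 8.0, 8.23, 7.90 and 8.07 on day 3, and 8.34, 8.14, 8.19 and 8.15 on day 7. In WT cells Bcl3 read 8.65, 9.01, 9.38 and 9.46 on day 0, then 7.88, 7.45, 7.78 and 7.36 on day 3, and 7.66, 8.30, 7.97 and 7.49 on day 7. Later arrays lay below all day 0 arrays in both genotypes. Bcl3 fell 2.25-fold to day 3 in KO (−1.17, SE 0.162, adjusted p = 5.8e-05) and 2.85-fold in WT (−1.51, SE 0.162, adjusted p = 1.4e-06). On day 7 it was 2.02-fold below day 0 in KO (−1.02, adjusted p = 1.1e-04) and 2.42-fold below it in WT (−1.28, adjusted p = 9.9e-07). The KO value lies at the 2-fold minimum and was −0.98 without the J1 KO clone (adjusted p = 0.034), −0.98 without J1 replicate 1 of day 0 and −0.99 without E14 replicate 2 of day 7. The WT value was −0.86 without the V6.5 clone (adjusted p = 0.0036).

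Between days 3 and 7, no member was called in KO and 1 in WT, and the difference between genotypes over this interval was not tested. In KO cells none of the 6 members passed either threshold with limma, and none had an unadjusted p under 0.05, where 1.65% of all genes rose and 0.351% fell. In WT cells Il6st rose, and 4 others were higher past the p threshold alone: Lifr by 0.98 (adjusted p = 3.5e-04), Pim1 by 0.84 (0.010), Socs3 by 0.72 (0.0063) and Stat3 by 0.62 (0.0044). That p threshold alone was passed upward by 14.2% of all genes in WT over this interval. Bcl3 differed by 0.24 (adjusted p = 0.31). Within line J1, Il6st changed by 0.66 in KO and 0.69 in WT over this interval. Without both WT J1 arrays of day 7 Lifr also rose (1.30, adjusted p = 4.1e-05), and 2 members were called.

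Counted by arrays that do not overlap, 4 members (Socs3, Stat3, Lifr and Bcl3) lay below all day 0 arrays in KO on day 3, and all 6 did in WT. Of all genes, 6.18% did so in KO and 7.2% in WT. On day 7 the same 4 members did so in KO, with 8.94% of all genes, and 2 members (Socs3 and Bcl3) in WT, with 15.5% of all genes.

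**Figure D2:**
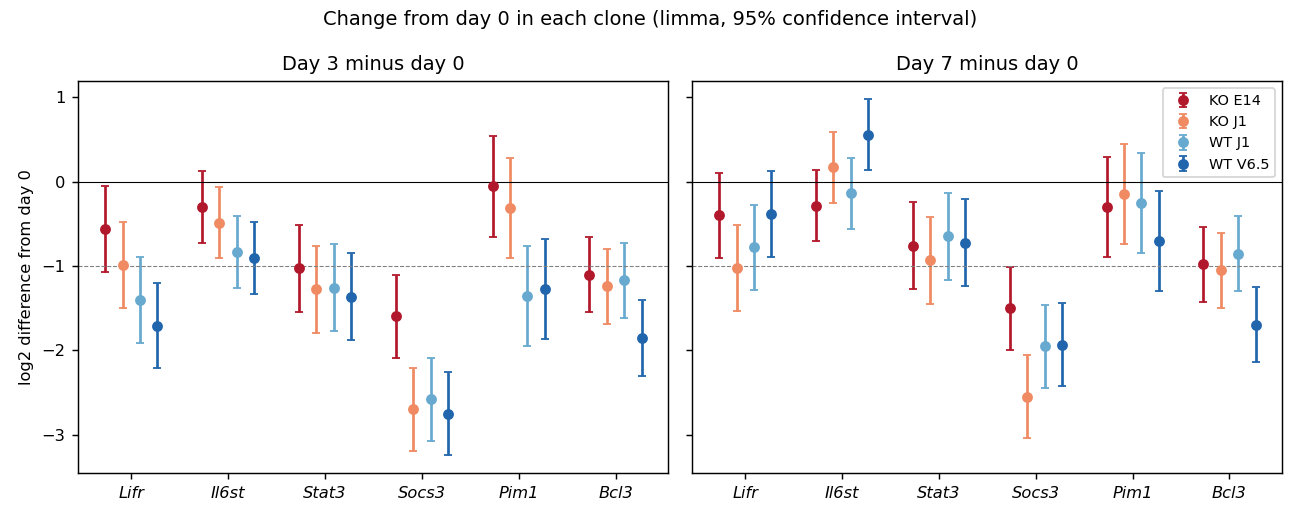
Log2 difference from day 0 on day 3 (left panel) and day 7 (right panel) for each member in each of the 4 clones. Points are limma estimates with 95% confidence intervals, and the dashed line marks a 2-fold fall. Socs3 lies below the dashed line in all 4 clones, from −1.50 in KO E14 on day 7 to −2.75 in WT V6.5 on day 3.

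Fitted clone by clone, Socs3 fell in all 4 clones on both days by its first probe set. The day 3 differences from day 0 were −1.60 in KO E14, −2.70 in KO J1, −2.58 in WT J1 and −2.75 in WT V6.5 (SE 0.234 in each). The day 7 differences were −1.50 in KO E14, −2.55 in KO J1, −1.95 in WT J1 and −1.93 in WT V6.5. The clone with the smallest Socs3 fall was KO E14, whose day 0 mean of 10.07 was also the lowest of the 4 clones. The change to day 3 was 1.10 smaller in KO E14 than in KO J1 (95% interval 0.41 to 1.80), which did not pass the adjustment over all genes (adjusted p = 1), and by 1.04 to day 7 (0.35 to 1.74, adjusted p = 0.42). No gene of the whole array was called between the KO clones to day 3 (0% in either direction), and 0.0853% were called higher and 0.0301% lower to day 7. Between the WT clones the largest member difference was that of Bcl3 to day 7, which was 0.84 lower in V6.5 than in J1 (adjusted p = 0.29), or 1.16 lower and called without J1 replicate 1 of day 7 (adjusted p = 0.032). No member was called between WT clones over all arrays by limma, with 1 of 6 at an unadjusted p under 0.05 to day 3 and 2 to day 7, where 0.00502% of genes were called higher and 0% lower to day 3, and 0.597% and 0.16% to day 7. The KO clones had 1 such member to each day.

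On day 3, 3 members were called in KO E14 and the same 3 in KO J1 (Socs3, Stat3 and Bcl3), against 0.692% of all genes lower in KO E14 and 0.567% in KO J1. In both WT J1 and WT V6.5, 5 were called (all but Il6st), against 1.19% of all genes in J1 and 1% in V6.5. On day 7 the count was 1 in KO E14 (Socs3), 3 in KO J1 (Socs3, Lifr and Bcl3), 1 in WT J1 (Socs3) and 2 in WT V6.5 (Socs3 and Bcl3), against 0.562%, 0.436%, 4.05% and 4.22% of all genes in that order of clones. Bcl3 had its largest falls in WT V6.5, at −1.86 on day 3 and −1.69 on day 7, and Lifr at −1.71 on day 3 in the same clone. The call of Lifr in KO J1 on day 7 (−1.03, adjusted p = 0.013) was lost without any 1 of the 4 KO J1 arrays of days 0 and 7 (−0.95 to −1.11, adjusted p 0.066 to 0.10), and that of Bcl3 without KO J1 replicate 1 of day 0 (−0.97, adjusted p = 0.055). In WT J1, leaving out replicate 2 of day 3 left 1 call on day 3, Socs3, and leaving out replicate 2 of day 7 gave 4 calls on day 7, with Stat3, Lifr and Bcl3 added. Within clones of 2 arrays a day, the Stat3 call of day 3 was lost without any of the 4 KO E14 arrays (−0.86 to −1.20) and without 3 of the 4 KO J1 arrays, all but replicate 2 of day 3 (−1.14 to −1.31). The Bcl3 call of day 3 was lost without either KO E14 array of day 0 or KO E14 replicate 1 of day 3 (−0.99 to −1.14), and without KO J1 replicate 1 of day 3 (−1.16). In WT J1 it was lost without replicate 2 of day 0 (−0.99) or of day 3 (−0.95). The Pim1 call was lost without WT J1 replicate 2 of day 0 (−1.23) or of day 3 (−0.89), and without WT V6.5 replicate 1 of day 0 (−1.13) or replicate 2 of day 3 (−1.06). The Socs3 calls held in all 4 clones on both days under each array left out, and were lost with the second probe set.

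Within line J1, the changes of KO and WT could be set side by side without a difference of line. The Socs3 change to day 3 was −2.70 in KO and −2.58 in WT, that of Stat3 −1.28 in KO and −1.26 in WT, and that of Bcl3 −1.24 in KO and −1.17 in WT. These differences between genotypes were −0.12 (95% interval −0.82 to 0.58), −0.02 (−0.75 to 0.71) and −0.07 (−0.70 to 0.56). By the second Socs3 probe set the change to day 3 was −0.67 in KO J1 and −0.22 in WT J1. Pim1 changed by −0.31 in KO J1 and −1.36 in WT J1, a difference of 1.04 (95% interval 0.20 to 1.88, adjusted p = 0.92). None of the 6 members passed the threshold in this comparison, on either day, and 1 (Pim1, day 3) had an unadjusted p under 0.05. Of all genes, 0.0251% were called higher and 0.015% lower in this comparison to day 3, and 1.32% and 0.256% to day 7.

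**Figure D3:**
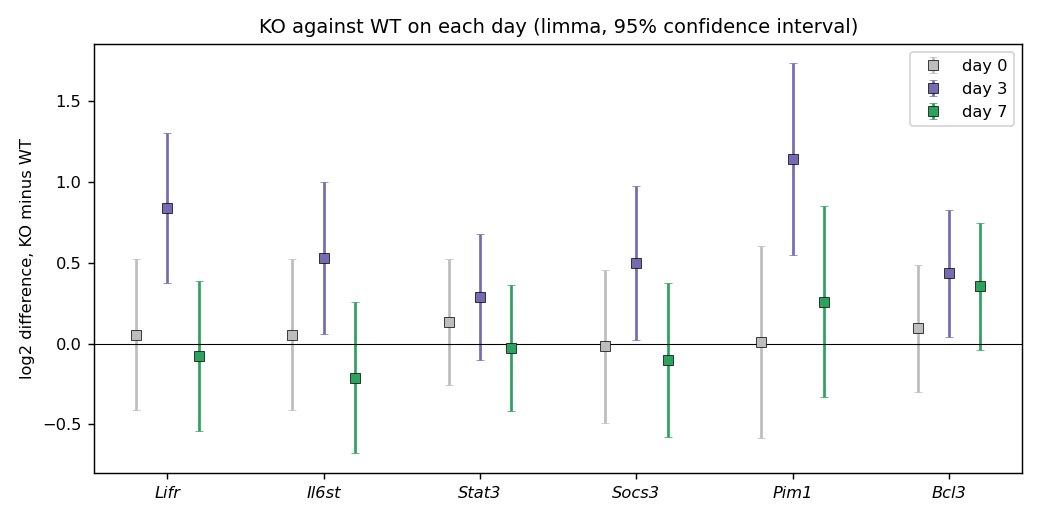
KO minus WT difference of each member on days 0, 3 and 7 on the log2 scale. Squares are limma estimates with 95% confidence intervals over 4 KO and 4 WT arrays a day. The day 0 estimates lie between −0.02 and 0.13, and on day 3 the Pim1 estimate is 1.14.

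Set KO against WT on the same day, the 6 members did not differ past the threshold in undifferentiated cells, and none had an unadjusted p under 0.05, where KO had 0.461% of all genes called higher and 0.0903% called lower. The differences on day 0 ran from −0.02 for Socs3 (95% interval −0.49 to 0.46) to 0.13 for Stat3 (−0.26 to 0.52), and the widest interval was that of Pim1 (−0.58 to 0.60). On day 3 Pim1 was 2.21-fold higher in KO (1.14, SE 0.286, adjusted p = 0.034), where 0.667% of all genes were called higher and 0.0903% lower. Lifr was 0.84 higher (SE 0.225, adjusted p = 0.04994), which is under 2-fold, and 1.58% of all genes were higher by that p threshold alone. Socs3 was 0.50 higher, Il6st 0.53, Bcl3 0.43 and Stat3 0.29, with adjusted p-values of 0.30 to 0.61. An unadjusted p under 0.05 was reached by 5 of the 6 members on day 3, all but Stat3. The share of all genes past that unadjusted level was not computed, so this count cannot be set against it. By arrays, Lifr and Bcl3 lay higher in all 4 KO arrays than in all 4 WT arrays on day 3, with 6.12% of all genes, and Pim1 did not.

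The Pim1 call was lost under several alternatives. When the arrays of a clone were averaged the difference was 1.14 (adjusted p = 0.21). It was smaller without the E14 KO clone (0.81, adjusted p = 0.66) and without the J1 WT clone (0.66, adjusted p = 0.14). The call was also lost without any of 5 single day 3 arrays (adjusted p 0.054 to 0.12), and for 4 of these the difference was 1.06 to 1.17. WT J1 replicate 2 of day 3, at 7.62, was the lowest of all Pim1 readings. Without that array, the fifth of those 5, the difference was 0.87 (adjusted p = 0.12). On day 7 the differences ran from −0.21 for Il6st (95% interval −0.68 to 0.26) to 0.35 for Bcl3 (−0.04 to 0.75), and none of the 6 members had an adjusted or an unadjusted p under 0.05, where KO had 3.08% of all genes called higher and 1.28% called lower. These day 7 values include the WT J1 arrays that stood apart.

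The difference between genotypes in the change from day 0 was tested directly. To day 3, the largest values were those of Pim1 (1.13, 95% interval 0.42 to 1.84, adjusted p = 0.46) and Lifr (0.78, 0.22 to 1.34, adjusted p = 0.60), which had unadjusted p-values under 0.05. Neither passed the threshold, nor did the other 4 members, for which the differences were 0.52 for Socs3, 0.48 for Il6st, 0.34 for Bcl3 and 0.16 for Stat3. Over all genes, 0.0301% were called higher and 0.0201% lower in this test to day 3. To day 7, the 6 differences lay between −0.27 for Il6st and 0.26 for Bcl3, and no member had an unadjusted p under 0.05, where 1.93% of all genes were called higher and 1.45% lower. These day 7 values include both WT J1 arrays, without which the WT change of Il6st was larger, as given above. A Pim1 or Lifr fall confined to WT on day 3 is therefore not shown by these data.

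Ordered by group mean, Socs3, Stat3, Lifr, Pim1 and Bcl3 had both day 0 groups at the top and WT of day 3 at the bottom. For Socs3 the order was WT day 0 (10.43), KO day 0 (10.41), WT day 7 (8.49), KO day 7 (8.38), KO day 3 (8.26) and WT day 3 (7.76), and the arrays of neighbouring groups overlapped except between KO day 0 and WT day 7. For Bcl3 the one gap without overlap was again below the day 0 groups, and for Lifr it was between KO day 3 and WT day 3. For Stat3, Il6st and Pim1 all neighbours in the order overlapped. Il6st had WT day 7 at the top (10.31).

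Over the 12 clone-by-day means, Socs3 varied most like Stat3 (r = 0.954) and Bcl3 (0.948) of 5391 genes compared, followed by S100a4 (0.935). After Socs3, Stat3 was most like Bcap29 and Laptm5, and Bcl3 was most like Tgm1 (0.973), S100a4 (0.969) and Septin1 (0.950). Lifr was most like Bcap29 (0.916), Yes1 and Arid5b, Pim1 most like Med13l (0.927), Sgms1 and Slc25a36, and Il6st most like Zc3h7a, Fn1 (0.868 each) and Sgms1. Il6st was the member least like Bcl3 (0.406) and Socs3 (0.456). These correlations describe 12 means that share clones and days.

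**Figure D4:**
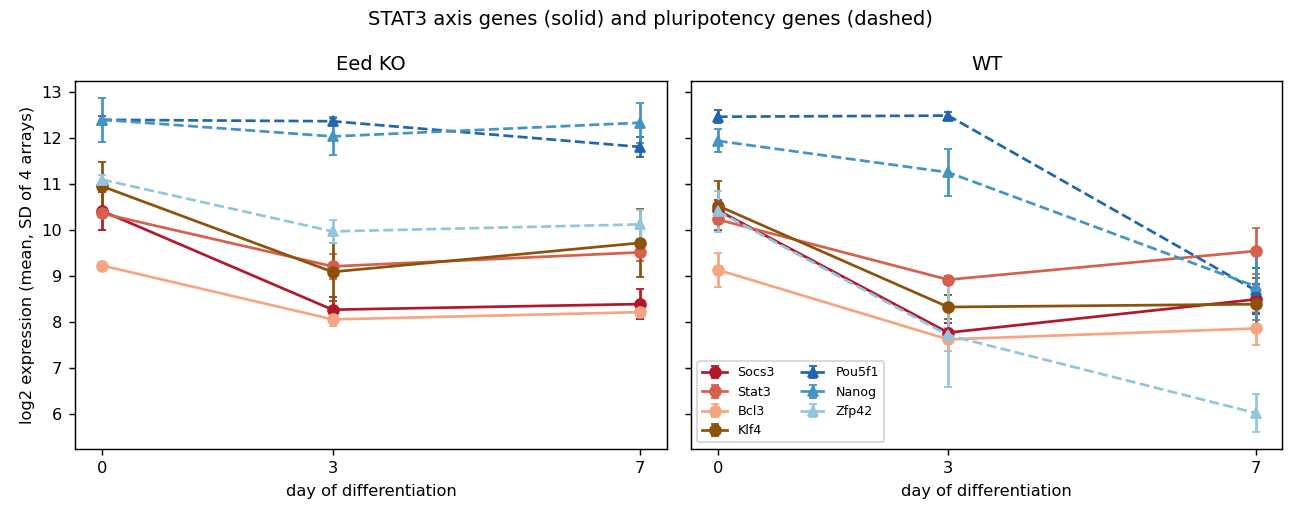
Mean log2 expression with SD of 4 arrays on days 0, 3 and 7 in KO (left) and WT (right). Solid lines are Socs3, Stat3, Bcl3 and Klf4, and dashed lines are the pluripotency genes Pou5f1, Nanog and Zfp42. In KO the solid lines drop to day 3 while Pou5f1 has means of 12.39, 12.36 and 11.80 on days 0, 3 and 7 and Zfp42 differs by −1.13 to day 3, and in WT both sets are lower on day 7 than on day 0.

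The members were set beside the transcription factors of pluripotency. On day 7 Pou5f1 was 3.12 higher in KO than in WT (SE 0.176), Nanog 3.56 (SE 0.325), Esrrb 3.57 (SE 0.365) and Zfp42, a marker of undifferentiated cells, 4.10 (SE 0.406), all called. Over the same arrays, those of WT J1 included, the 6 members differed by 0.35 or less. All 8 genes of the pluripotency list were called higher in KO on that day, where the share over all genes was 3.08%. From day 0 to day 7, Nanog changed by −0.07 in KO (adjusted p = 0.92) and fell by 3.16 in WT, and Pou5f1 differed by −0.59 in KO (adjusted p = 0.0077, under 2-fold) and fell by 3.78 in WT. In the same KO arrays Socs3 was 2.03 and Bcl3 1.02 lower than on day 0. On day 3, Pou5f1 changed by −0.03 in KO and 0.03 in WT, while Socs3 and Stat3 had fallen in both. Other genes of the pluripotency list were lower by then, and 1 of its 8 genes fell in KO and 3 in WT, against 0.607% and 1.08% of all genes. Esrrb fell by 1.11 in KO (adjusted p = 0.031) and by 2.36 in WT, and Zfp42 differed by −1.13 in KO (adjusted p = 0.051) and fell by 2.70 in WT.

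The other genes of the pathway were followed through lists, of which 68 of 74 genes besides the 6 members were measured. On day 3, 4 fell and 2 rose in KO, and 9 fell and 2 rose in WT, where 0.607% of all genes fell and 0.562% rose in KO, and 1.08% fell and 0.958% rose in WT. On day 7, 3 fell and 1 rose in KO, and 12 fell and 3 rose in WT, where 0.421% of all genes fell and 2.05% rose in KO, and 3.89% fell and 5.09% rose in WT. The median difference of the 68 genes lay between −0.17 and −0.07 in these 4 comparisons.

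Among ligands, 9 cytokines of the LIF family were measured, Lif, Il6 and Osm among them, and limma called none in the comparisons of days or genotypes. An unadjusted p under 0.05 was reached by 2 of the 9 in each comparison of day 3 or day 7 with day 0. Lif itself averaged 6.92, 6.78 and 6.77 on days 0, 3 and 7 in KO, and 6.78, 7.13 and 6.65 in WT. Il6 was lower past the p threshold alone in all 4 of these comparisons, by 0.51 on day 3 (adjusted p = 0.023) and 0.55 on day 7 (adjusted p = 0.0070) in KO, and by 0.49 on day 3 (adjusted p = 0.018) and 0.40 on day 7 (adjusted p = 0.024) in WT. Others were higher past it in WT, Lif by 0.35 on day 3 (adjusted p = 0.042) and Clcf1 by 0.39 on day 7 (adjusted p = 0.012). From day 3 to day 7 in WT, Lif differed by −0.48 (adjusted p = 0.0018). The 9 cytokines together averaged 6.42 in KO and 6.47 in WT on day 0. That is near the level of 6 below which 1 alternative left genes out, and small differences there are uncertain. The cytokine readings concern RNA of the cells, not the LIF added to the medium.

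Among receptors of the gp130 family, Osmr, the oncostatin M receptor subunit, fell to day 3 by 1.61 in KO (adjusted p = 4.9e-06) and by 1.31 in WT (adjusted p = 2.1e-05). It averaged 7.57, 5.96 and 6.80 on days 0, 3 and 7 in KO, and 6.91, 5.60 and 5.75 in WT, and on day 7 it was 1.05 higher in KO than in WT (SE 0.207, adjusted p = 8.9e-04). Cntfr, the receptor subunit for ciliary neurotrophic factor, moved the other way. It rose to day 3 by 1.25 in KO and 1.36 in WT, and stood 1.42 above day 0 in KO and 2.11 above it in WT on day 7 (adjusted p = 6.9e-05 or less in all 4). The receptor genes thus did not move as a block, with Lifr and Osmr lower and Cntfr higher in the WT EBs of day 3.

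Among the 12 other measured JAK and STAT transducers, none was called between day 0 and later days in KO. In WT, Stat4 fell by 1.14 to day 3 (adjusted p = 0.0020) and differed from day 0 by −2.79 on day 7 (adjusted p = 2.5e-09), whereas Jak2 rose by 1.67 to day 7 (adjusted p = 2.3e-06) and Stat5b by 1.14 (adjusted p = 2.8e-06). The change of Stat4 to day 7 differed between genotypes by 2.72 (adjusted p = 1.3e-05), and that of Jak2, the kinase bound to gp130, by −1.02 (adjusted p = 0.048). Fitted clone by clone, Jak2 and Stat5b were called higher on day 7 in WT V6.5 and not in WT J1, and within line J1 the genotype difference was called for Stat4 and not for Jak2. Stat3 was the transducer called in both genotypes on day 3. Of the 16 negative regulators, Socs3 was the 1 called on day 3 in KO and in WT. Socs2, another member of the SOCS family, fell by 1.91 to day 7 in WT (adjusted p = 2.6e-07) and differed by −0.61 in KO (adjusted p = 0.061).

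**Figure D5:**
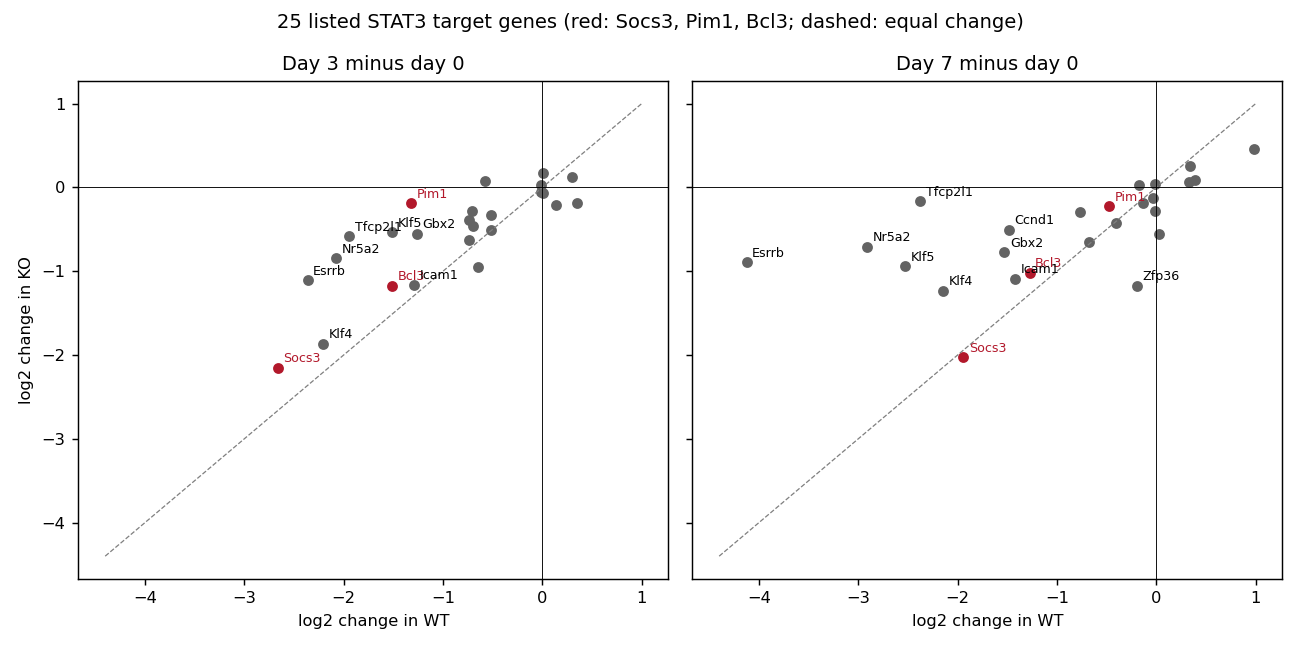
Log2 change from day 0 in KO (vertical axis) against WT (horizontal axis) for 25 listed STAT3 target genes on day 3 (left panel) and day 7 (right panel). Each point is a gene, the dashed line marks equal change, and Socs3, Pim1 and Bcl3 are red. On day 7 Socs3 lies near the dashed line, and Esrrb, at −0.89 in KO and −4.12 in WT, lies far above it.

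Of 25 listed STAT3 target genes, which include Socs3, Pim1 and Bcl3, 5 fell in KO and 10 in WT on day 3, and 5 in KO and 10 in WT on day 7, with none called higher. Of all genes, 0.607% fell in KO and 1.08% in WT on day 3, and 0.421% in KO and 3.89% in WT on day 7. The median difference of the 25 targets was −0.47 in KO and −0.71 in WT on day 3, and −0.43 in KO and −0.48 in WT on day 7, against medians over all genes given above for day 3 and of −0.037 in KO and −0.035 in WT on day 7. Klf4, a transcription factor of naive pluripotency, fell in both genotypes on day 3, with a difference of −1.86 in KO (adjusted p = 2.8e-04) and −2.21 in WT (adjusted p = 2.0e-05). Icam1, an adhesion molecule, fell by 1.16 in KO and 1.29 in WT on day 3 and stood 1.09 below day 0 in KO and 1.42 below it in WT on day 7.

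Other listed targets differed between genotypes in their change to day 7 over all clones. Tfcp2l1, another such factor, differed from day 0 by −0.17 in KO (adjusted p = 0.86) and −2.38 in WT (adjusted p = 1.1e-04), and its change differed between genotypes by 2.21 (adjusted p = 0.027). The same held for Esrrb (difference 3.23, adjusted p = 4.0e-05), Nr5a2 (2.20, adjusted p = 0.0074) and Klf5 (1.59, adjusted p = 7.8e-04), each with a smaller fall in KO. Esrrb is also on the pluripotency list and is counted in both lists. Within line J1, Klf5 and Esrrb were called in this test, and Tfcp2l1 and Nr5a2 were not. Of the 25 targets, 4 passed in this test, all with the KO change the higher, against 1.93% of all genes, and Socs3, Pim1 and Bcl3 were not among them. The Socs3 difference was −0.08 (95% interval −0.65 to 0.49).

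Pim2, which encodes a kinase related to that of Pim1, followed another course. It averaged 8.84, 10.97 and 8.30 on days 0, 3 and 7 in KO, and 10.07, 11.61 and 8.02 in WT. It rose to day 3 by 2.13 in KO (adjusted p = 1.1e-04) and 1.54 in WT (adjusted p = 0.0015), and the difference of day 7 from day 3 was −2.67 in KO and −3.59 in WT (both called). Pim1 on day 3 differed from day 0 by −0.19 in KO and −1.32 in WT.

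Genes of other cells moved with the days as well. The list of feeder fibroblast genes (13 of 14 measured) averaged 8.63, 7.68 and 8.37 on days 0, 3 and 7 in KO, and 7.92, 7.35 and 9.03 in WT. On day 0 its array means ran from 8.21 to 9.23 in KO and from 7.77 to 8.09 in WT. To day 3, 4 of its genes fell in KO and 2 in WT, Lox and Thbs1 among them in both. Of all genes, 0.607% fell in KO and 1.08% in WT over that interval. From day 0 to day 7, 2 genes of the list fell and 1 rose in KO, and 2 fell and 7 rose in WT. The shares of all genes were 0.421% lower and 2.05% higher in KO, and 3.89% lower and 5.09% higher in WT. Whether the list measures feeder cells in EBs was not tested. The part of the feeder cells in the falls of the members was not tested. On day 7 the primitive blood list averaged 6.82 in KO and 10.25 in WT, and the endothelial list 7.83 in KO and 8.71 in WT, and the part of such cells in the WT rise of Il6st after day 3 was not tested.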

How the data were processed

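For each probe set the authors deposited 1 log2 value per array. The submitters' processing notes name RMA and Affymetrix Power Tools. The software release and the genome build were not given in the sources used here. Values ran from 2.08 to 14.4, from which the log base was inferred. RMA equalises the arrays' distributions, so a change of total RNA per cell is removed, and small signals are compressed. The number of arrays limits the precision.

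Of 35556 probe sets, 21789 had 1 gene symbol and entered, 1621 had several symbols and 12146 were not listed. The probe set with the highest mean stood for each of 19938 genes, with no filter on low values. RefSeq coordinates are of GRCm38.p6 and serve only for names and promoters.

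Differences were fitted with limma 3.58.1 and statmod 1.5.0 in R 4.3.3, with 6 genotype-by-day means over all 24 arrays and clone as a random block (consensus correlation 0.161, 18 residual degrees of freedom). Differences within and between clones came from 12 clone-by-day means (12 residual degrees of freedom). P-values were adjusted over all genes, and 2-sided. In simulated data for KO day 3 against day 0 over 19938 genes, 100 of 100 changes of 1.5 and 99 of 100 of 2 on the log2 scale were recovered. The simulated noise was normal with the spread between arrays of a clone, and each clone's offset was the same on all days. Clones that differ in their change and changes nearer the 2-fold minimum were not simulated.

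The members, lists and tests were chosen with earlier results of these data known. The genes named were all members, up to 4 called genes per pathway list and comparison, or the 2 largest if none was called, and the 3 genes most like each member among those whose means ranged over at least 1. Marker genes of the pluripotency and feeder lists are named as markers. Alternatives changed the normalization, block, probe set, filter, fold minimum, variance model, clones and arrays. Replicate numbers were not used to pair samples, because same-numbered arrays deviated together in 30 of 66 pairs of groups only (r over 0.1; range −0.397 to 0.47).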

Additional observations from a re-analysis of the deposited data

Results flagged for a closer look

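One Pim1 reading stood apart from its group. On day 7 in KO cells, J1 replicate 1 read 9.29 and was the lowest of the 4 KO arrays, and its gap to the nearest of the others was larger than Dixon's test at 95% allows. This was 1 of 36 groups of 4 arrays examined (6 members, 2 genotypes and 3 days), and chance gives about 1 in 20.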

How the results depend on the processing

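Of 1284 combinations of a called member result with an alternative, the call was lost in 53, and none turned in sign. The combinations include the alternative without a fold minimum, under which a call cannot be lost. They also include the leaving out of arrays that were not in the groups compared. The share of calls lost is therefore not a measure of how firm the calls are. Quantile normalization again and centring shifted the median difference of all genes by up to 0.043 and 0.092. With a replicate block, none of 186 results, member results and counts of called genes together, was scored as changed (Socs3, KO day 3 minus day 0: adjusted p = 1.1e-06). Small changes of a count were scored as no change.

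Without a fold minimum, members called were 4 in KO and 4 in WT (day 7 minus day 0, against 2 each), 5 for WT day 7 minus day 3 (against 1), 2 for KO minus WT on day 3 (against 1), and on day 7 by clone 2 in KO E14, 3 in WT J1 and 4 in WT V6.5 (against 1, 1 and 2). The 4 in WT V6.5 were 3 lower and 1 higher (Il6st, 0.56, adjusted p = 0.046). The share of all genes by this rule is not given for single clones, so those counts cannot be set against it. On day 7 minus day 0 the count was 1 in KO without clone KO J1, and 1 in WT without clone WT V6.5. Without clone WT J1 it was 2 for WT day 7 minus day 3, and 0 for KO minus WT on day 3. The KO minus WT count was also 0 without clone KO E14 and with arrays averaged. The other Socs3 probe set gave 1 in KO and 1 in WT on day 7, and by clone 0 in KO E14, 0 in WT J1 and 1 in WT V6.5. Both normalizations gave 2 in KO E14 on day 7. Without both WT J1 arrays of day 7, an alternative chosen after seeing the data, WT day 7 minus day 3 had 2. Leaving out 1 array at a time gave 1 to 2 for KO day 7, 0 to 2 for WT day 7 minus day 3 and for KO minus WT on day 3, and 0 to 1 for the difference of the WT clones to day 7. By clone it gave 1 to 3 for KO E14 day 3, 1 to 2 for KO E14 day 7, 1 to 3 for KO J1 on either day, 1 to 6 for WT J1 day 3 and 1 to 4 for WT J1 day 7. A lone array was then assumed to vary like the other groups. The causes were not tested.

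Over all genes, no fold minimum raised the calls to 1269 in KO and 2324 in WT on day 3 (from 233 and 407), 3299 and 7301 on day 7 (from 492 and 1791), 2032 and 5889 from day 3 to day 7 (from 399 and 1242), and for KO minus WT 402, 434 and 3250 on days 0, 3 and 7 (from 110, 151 and 870), with 15 and 1617 for the changes to days 3 and 7 (from 10 and 673). Without KO E14, 124 genes were called in KO on day 3 and 210 from day 3 to day 7. For KO minus WT, averaged arrays left 22 genes on day 0 and 43 on day 3, while leaving out WT J1 gave 272 and 247. Single arrays left out gave 71 to 122 on day 0. The change to day 3 had 0 to 24 genes, and that to day 7 had 313 without WT V6.5 and 1013 without WT J1.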

Other observations

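Some transducers differed between the KO and WT clones before differentiation, past the p threshold and under 2-fold. Of all genes, 402 passed that p threshold on day 0. By the full call there were 110, and 22 with the arrays of a clone averaged. The day 0 difference within the line shared by both genotypes was not tested, so genotype cannot be told apart from line here. Gab1, which encodes an adaptor of cytokine receptors, averaged 10.30 in KO and 11.16 in WT on day 0 (difference −0.87, adjusted p = 0.0013 in limma). Jak1, which encodes a kinase bound to gp130, averaged 10.22 in KO and 9.52 in WT (difference 0.70, adjusted p = 0.0083). On day 7 Zfp36, which encodes an RNA-binding protein that destabilises transcripts, was 1.17 lower than on day 0 in KO (adjusted p = 0.0062) and differed by −0.20 in WT (adjusted p = 0.66). Those Zfp36 changes differed by −0.98 between genotypes, which did not pass the threshold (adjusted p = 0.16).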
